A study of Mus musculus with 24 samples.

Results

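The collagen chain genes of the mouse lung were followed across 24 libraries of total RNA. They were taken as the protein-coding genes whose symbol has the form of a collagen alpha chain (Col, a type number, a, and a chain number), which 44 of the 78298 genes in the table met, out of 21748 protein-coding genes. The animals were C57BL/6 mice aged 7 weeks, wild type for all alleles given. An aqueous extract of Artemisia argyi (AEAA, from a mugwort) was given in the drinking water over 28 days, lipopolysaccharide (LPS, a bacterial cell wall component) was instilled into the trachea on day 29, and the lungs were taken 8 h later. The control group (n = 4) received saline and no extract, and the LPS group (n = 5) received 5 mg/kg LPS and no extract. The groups AEAA_low, AEAA_mid and AEAA_high (n = 5 each) received the same LPS after extract at 0.5, 1 and 1.5 mg/mL. No group received extract without LPS, so an action of the extract on unchallenged lung was not analysed here. The challenge field of the control samples also lists LPS, against the treatment description, which gives them saline. All animals are labelled male, whereas Xist, which is transcribed from the inactive X chromosome, stood between 40.0 and 75.2 scaled TPM in every library and the Y-linked Ddx3y did not exceed 0.031.

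Collagens are built from alpha chains that wind into triple helices, and a given collagen type needs its chains in fixed combinations. Fibrillar collagens (types I, III and V among others) form the cable-like fibrils of the lung interstitium and of vessel and airway walls, while type IV collagens form the sheet of the basement membrane on which epithelium and endothelium rest. Type VI collagen makes beaded filaments around cells, the FACIT group (fibril-associated collagens with interrupted triple helices) decorates fibrils, and the remaining groups hold network-forming, anchoring, transmembrane and multiplexin chains. The values below are transcript levels, not protein.

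Levels are given as scaled TPM. TPM gives each transcript's share of the library after correction for transcript length, so levels of different genes can be set side by side. In the control libraries 1 airway transcript, Scgb1a1, held 23.2 to 35.5% of all TPM, against 3.13 to 6.46% in the LPS libraries, and at a fixed total such a drop raises every other gene. Each library was therefore divided by a factor computed from the median gene (0.645 to 0.801 in control, 0.887 to 1.27 in challenged libraries). Changes are differences of log2(scaled TPM + 1), tested with limma over the 17823 genes whose TPM reached 1 in 4 libraries or more, and a gene is said to have risen or fallen where its Benjamini-Hochberg adjusted p was 0.05 or less. Without the scaling, the median of all genes stood 0.55 higher in LPS than in control and 0.27 lower in AEAA_high than in LPS, and more collagen genes passed. Those counts stand beside each result. Of the 44 collagen genes, 30 met the level filter and were tested. The labels call the libraries biological replicates, and no 2 libraries held identical values. LPS 1, LPS 3 and AEAA_low 5 carried skeletal muscle transcripts, with Acta1 (skeletal actin) at 1838, 1156 and 473 scaled TPM against at most 5.81 in the other libraries. In whole lung, fewer cells of a type and less RNA per cell cannot be told apart.

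Type IV chains made up 41.8% of the summed collagen level over all libraries, fibrillar chains 32.6% and type VI chains 15.0%. The sum over all 44 genes was 709 to 965 scaled TPM in control libraries, 872 to 1943 in LPS, 951 to 1590 in AEAA_low, 1150 to 1829 in AEAA_mid and 718 to 1275 in AEAA_high. All but LPS 2, AEAA_low 1, AEAA_high 1 and AEAA_high 4 of the challenged libraries lay above the highest control. In units of scaled TPM, the sum of type IV, the most abundant class, had the widest spread among challenged animals. It ran from 264 to 965 in LPS against 193 to 266 in control. The fibrillar sum ranged from 327 to 582 in LPS against 205 to 383 in control. The sum of the 9 FACIT genes ran the other way, at 40.5 to 49.3 for the controls and 18.5 to 42.0 for the LPS libraries.

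**Figure D1:**
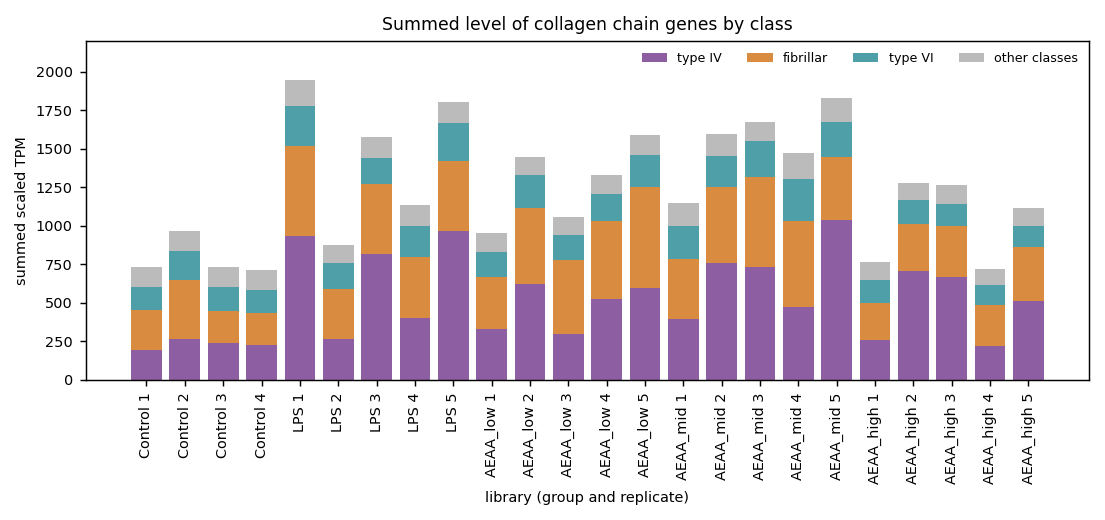
Summed scaled TPM of the collagen chain genes (vertical axis) in each of the 24 libraries (horizontal axis), stacked by class. The control bars lie between 709 and 965, and the purple type IV part differs most between challenged libraries, from 264 to 965 within the LPS group.

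In LPS against control, 8 of the 30 collagen genes rose and 1 fell. Over all genes tested 13.8% rose and 14.2% fell, so the share that rose lay above that of all genes and the share that fell below it. The genes that rose were the fibrillar Col1a1, Col3a1, Col5a1, Col5a2 and Col5a3, the basement membrane pair Col4a1 and Col4a2, and Col6a1, while the FACIT gene Col12a1 fell. The median change of the 30 genes was 0.29 on the log2 scale, beside 0.00 for all genes. In 3 of them (Col4a1, Col5a1 and Col5a3) every LPS library lay above every control library, and in 1 (Col4a5) every LPS library lay below, where 14.2 and 13.5% of all genes were separated in these directions. With TPM as deposited, 17 rose and 0 fell, beside 56.2% of all genes that rose. The median change over all genes ran from -0.18 in the shortest of 10 equal transcript length bins to 0.13 in the longest. The tested collagen transcripts are long (median 5989 bases, against 3017 for all genes tested). After removal of that trend the median change of the 30 genes was 0.19, beside 0.02 for all genes. Without the 3 libraries with muscle transcripts only Col1a1 and Col5a1 rose and none fell. In that fit 7.29% of all genes rose and 8.04% fell, so the share that rose was near that of all genes. Leaving out Control 1, Control 4 or LPS 1 left 5 that rose, where the share over all genes was not counted. The fall of Col12a1 did not pass without any 1 of the control libraries or without LPS 1, LPS 3 or LPS 5.

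Col4a1 and Col4a2 encode the chains of the most widespread type IV collagen. They lie head to head on chromosome 8 and are transcribed in opposite directions from a shared region, which is shown here because both genes had the same high and low libraries. In the RefSeq models on GRCm38.p6 the first exons of both genes overlap by 22 bases, given in capitals at chr8:11312801-11312830 on the plus strand, where Col4a2 starts at 11312805 and Col4a1, on the minus strand, at 11312826.
Col4a1-Col4a2 starts: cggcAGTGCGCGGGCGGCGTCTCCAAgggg

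Col4a1 stood at 72.0, 105, 88.0 and 86.3 scaled TPM in the control libraries and at 461, 114, 452, 185 and 504 in LPS 1 to 5. The LPS values were all above the controls but fell apart into a low pair, LPS 2 and LPS 4, and 3 values of 452 or more. The fitted difference was 1.75 ± 0.49 (SE, limma adjusted p = 0.0115). Col4a2 stood at 59.5, 94.6, 81.4 and 81.0 in control and at 411, 91.1, 316, 142 and 396 in LPS, where LPS 2 lay below the highest control. Its difference was 1.56 ± 0.48 (limma adjusted p = 0.0196). Neither passed without the muscle-bearing libraries, where Col4a1 differed by 1.33 (limma adjusted p = 0.109) and Col4a2 by 1.13 (limma adjusted p = 0.161). That fit lost the high libraries LPS 1 and LPS 3 and kept the low pair with LPS 5. LPS 5 had Acta1 at 0.590 scaled TPM, and the part of the muscle transcripts was not tested. Col18a1, a multiplexin of basement membranes whose end piece is endostatin, had the same high and low libraries (12.4 to 47.3 in LPS against 10.7 to 13.3 in control) and did not pass, at 1.16 ± 0.45 (limma adjusted p = 0.0598).

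A low pair of Col4a1 values was also seen at every extract dose. Col4a1 was 132 and 129 in AEAA_low 1 and 3 against 252 to 295 in the other low-dose libraries. In AEAA_mid 1 and 4 it was 156 and 208 against 352 to 511, and in AEAA_high 1 and 4 it was 104 and 82.4 against 254 to 368. Both of these high-dose values lay within the control range. Cxcl2, a neutrophil chemokine that LPS induces, stood between 0.078 and 0.357 scaled TPM in control, and it was 1.08 and 0.072 in LPS 2 and 4, 0.601 in AEAA_low 1, 0.463 and 0.316 in AEAA_mid 1 and 4, and 0.410 and 0.388 in AEAA_high 1 and 4. It was 336 in AEAA_low 3 and 40.2 to 430 in the remaining challenged libraries. The low Col4a1 libraries are thus those with little Cxcl2, except AEAA_low 3, and the part of the strength of the challenge in the collagen values was not tested.

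**Figure D2:**
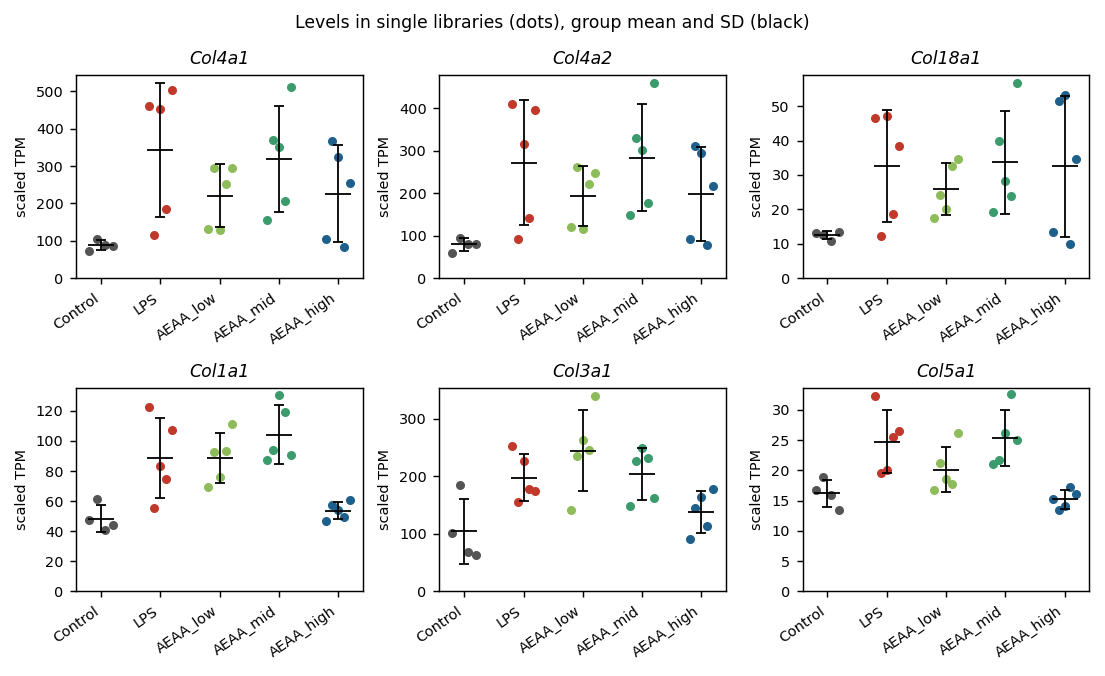
Scaled TPM (vertical axes) of Col4a1, Col4a2, Col18a1, Col1a1, Col3a1 and Col5a1 in single libraries (dots) by group, with the group mean and SD in black (n = 4 or 5). Col4a1 and Col4a2 show a low pair and 3 higher animals within each challenged group, for example 114 to 504 for Col4a1 in LPS, Col18a1 is spread more evenly in AEAA_low and AEAA_mid, while Col1a1 in AEAA_high stays between 46.9 and 61.0.

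The other type IV chains did not follow Col4a1. Col4a3, Col4a4 and Col4a5 form the trimer of the alveolar and glomerular basement membrane. Col4a5 was lower in every LPS library (14.4 to 25.0 scaled TPM) than in any control library (27.7 to 31.4), but its difference of -0.58 did not pass (limma adjusted p = 0.0877). Col4a3, its partner, was 14.8 to 18.3 in control and 15.8 to 30.4 in LPS, a difference of 0.42 in the other direction that did not pass either (limma adjusted p = 0.0721). Col4a4 and Col4a6 had adjusted p values of 0.239 and 0.335 in limma, and their ranges overlapped with control.

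Among the fibrillar genes, 5 of the 8 tested rose and none fell. Col1a1, the alpha 1 chain of type I collagen, stood at 47.2, 61.2, 40.6 and 44.3 scaled TPM in control and at 123, 55.3, 83.2, 74.5 and 108 in LPS. LPS 2 alone lay within the control range. The difference was 0.83 ± 0.19 (SE, limma adjusted p = 0.00331), and it passed without the muscle-bearing libraries as well, at 0.66 (limma adjusted p = 0.0283). Col1a2, the alpha 2 chain of the same trimer, went from 79.3 ± 12.1 (SD, n = 4) to 107 ± 24.6 (SD, n = 5). It did not pass, at 0.40 ± 0.15 (limma adjusted p = 0.0560).

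Col3a1, the only chain of type III collagen and the most abundant fibrillar gene, stood at 102, 185, 68.5 and 63.2 in control and at 254, 155, 226, 178 and 174 in LPS. Control 2 lay above 3 of the LPS libraries, and the difference was 1.02 ± 0.28 (limma adjusted p = 0.0115). The type V chains, which set the diameter of type I fibrils, all rose. Col5a1 went from 16.2 ± 2.22 to 24.8 ± 5.23, a difference of 0.57 (limma adjusted p = 0.00881), with every LPS library above every control. Col5a2 went from 10.2 ± 2.42 to 18.7 ± 5.28, a difference of 0.80, and Col5a3 from 0.784 ± 0.0993 to 1.74 ± 0.838, a difference of 0.57. The level of Col5a3 was near 1, where the added constant shrinks a fold change. Col27a1 and Col11a2 were at 3.71 and 0.533 in LPS and did not pass.

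The upstream sequence of 3 fibrillar genes is shown to let the reader compare genes that rose (Col3a1 and Col5a1) with the type I partner that did not pass (Col1a2). Each line gives the 250 bases before the RefSeq start on GRCm38.p6, 5′ to 3′ on the gene's own strand, which is the plus strand in all 3. Capitals mark 3 motifs on either strand: the CCAAT box, the GC box GGGCGG (read as CCGCCC on the other strand) and the TATA motif TATAAA. The windows are chr6:4505368-4505617, chr1:45311288-45311537 and chr2:27886175-27886424.
Col1a2: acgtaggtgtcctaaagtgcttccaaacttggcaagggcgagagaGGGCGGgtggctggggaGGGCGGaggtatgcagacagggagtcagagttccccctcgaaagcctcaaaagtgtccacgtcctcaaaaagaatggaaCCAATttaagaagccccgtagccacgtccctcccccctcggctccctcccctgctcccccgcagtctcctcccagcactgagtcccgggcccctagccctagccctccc
Col3a1: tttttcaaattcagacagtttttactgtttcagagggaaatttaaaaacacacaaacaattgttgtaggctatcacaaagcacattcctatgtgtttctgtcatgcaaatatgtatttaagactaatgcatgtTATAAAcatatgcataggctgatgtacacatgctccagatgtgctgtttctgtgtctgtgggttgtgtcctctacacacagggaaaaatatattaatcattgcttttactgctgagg
Col5a1: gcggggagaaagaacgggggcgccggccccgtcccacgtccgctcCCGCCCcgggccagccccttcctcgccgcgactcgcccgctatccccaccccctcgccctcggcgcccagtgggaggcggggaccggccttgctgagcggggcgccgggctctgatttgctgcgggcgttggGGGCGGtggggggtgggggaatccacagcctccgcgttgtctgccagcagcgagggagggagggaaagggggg

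The Col5a1 and Col1a2 windows each hold 2 GC boxes (GGGCGG on either strand) and no TATAAA, Col1a2 also has 1 CCAAT, and Col3a1 holds 1 TATAAA and neither other motif. Of the 44 genes, 35 had an entry in the RefSeq promoter table, with 38 windows between them. GGGCGG was found in 22 of those windows, beside 32.7% of all 32851 windows of that length. CCAAT was in 13 of the 38 (33.8% of all windows) and TATAAA in 5 (12.4% of all windows). A match describes these letters only.

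Of the 3 type VI genes tested 1 rose, and of the 4 FACIT genes tested 1 fell. Col6a1 rose, from 71.5 ± 7.21 to 105 ± 27.9 scaled TPM (0.52 ± 0.17, limma adjusted p = 0.0298). Its partners did not pass: Col6a2 went from 55.2 ± 8.87 to 72.7 ± 18.7 (limma adjusted p = 0.0808), and Col6a3 was 29.5 ± 4.35 and 29.1 ± 11.3. Col12a1, a FACIT collagen of dense connective tissue, stood at 12.6, 13.8, 11.9 and 10.2 in control and at 7.51, 8.56, 3.34, 11.1 and 6.32 in LPS, where only LPS 4 reached the control range. Its difference was -0.72 ± 0.26 (limma adjusted p = 0.0424). Col14a1, Col16a1 and Col20a1, the other FACIT genes tested, had negative differences of -0.67, -0.40 and -0.33 that did not pass.

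The remaining tested genes did not pass in LPS against control. Col13a1 and Col23a1, transmembrane collagens at cell surfaces, were at 24.2 and 20.7 scaled TPM in control and at 23.8 and 20.1 in LPS. Col17a1, the transmembrane collagen of hemidesmosomes, reached 5.92 in LPS 1 and 3.26 in LPS 3, both muscle-bearing libraries, and 0.985 to 1.77 in the others. Col8a1, a network collagen of vessel walls, was 17.2 in LPS 1 and 2.69 to 7.07 in LPS 2 to 5. Col7a1, which forms the anchoring fibrils under epithelium, went from 4.64 ± 1.37 to 3.28 ± 0.371, a difference of -0.37 (limma adjusted p = 0.173).

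**Figure D3:**
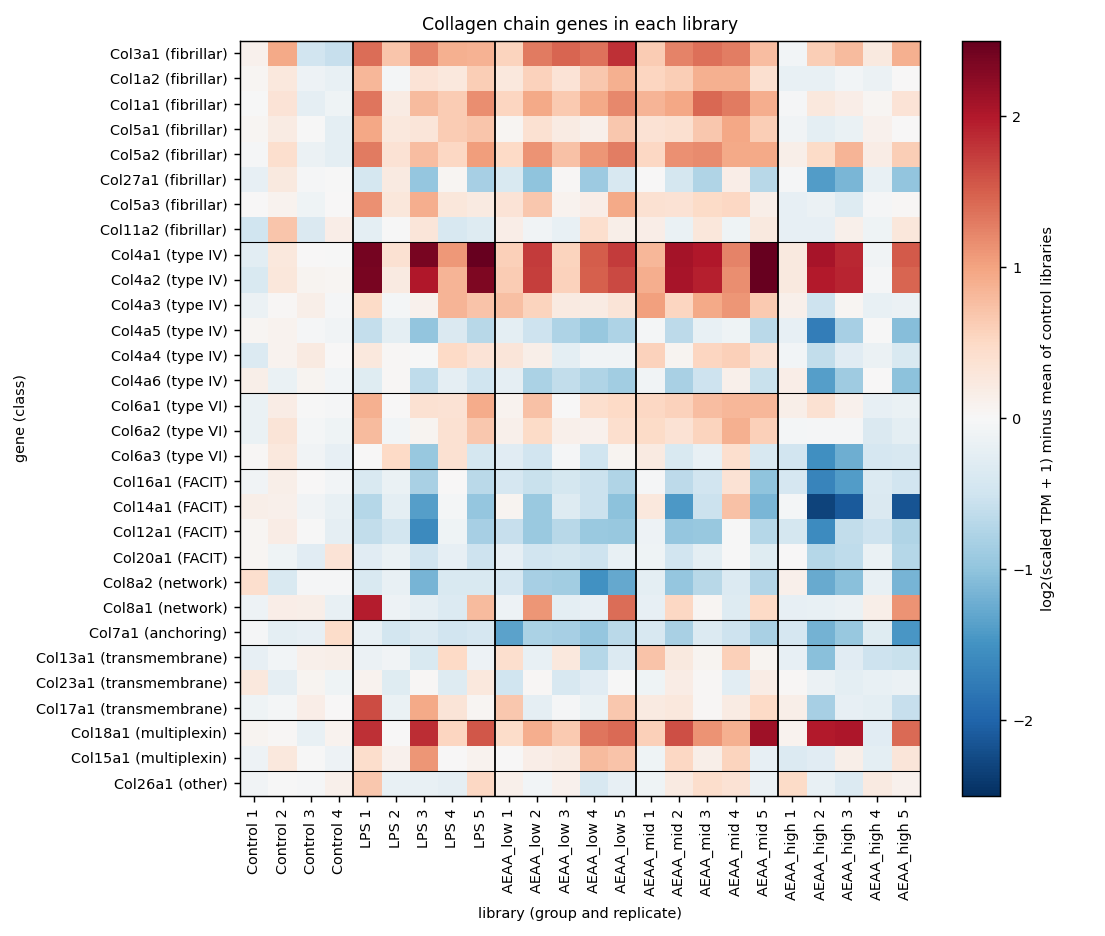
Colour shows log2(scaled TPM + 1) minus the mean of the control libraries for the 30 tested genes (rows, by class) in 24 libraries (columns, by group). Col4a1, Col4a2 and Col18a1 are darkest in LPS 1, 3 and 5, and Col4a1 and Col4a2 also in 3 libraries of each extract dose, and the FACIT rows are blue in most challenged libraries.

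The AEAA_high group was the extract group with collagen calls against LPS. In it 8 of the 30 genes fell and 0 rose in limma, where 3.27% of all genes fell and 5.67% rose. At an unadjusted p of 0.05, 13 of the 30 lay below and 0 above in limma. Over all 17823 genes, 1970 lay below and 2240 above at that cut-off. The genes that fell were the fibrillar Col1a1, Col1a2, Col5a1 and Col5a3, the alveolar type IV chains Col4a3 and Col4a4, Col6a2 and Col17a1. The median change of the 30 genes was -0.46, beside -0.01 for all genes. In 3 (Col4a4, Col5a1 and Col5a3) every AEAA_high library lay below every LPS library, which held for 1.58% of all genes, and in 0 every one lay above (2.36% of all genes). With TPM as deposited 16 fell, beside 25.5% of all genes.

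This count depended on how the data were fitted. With only the LPS and AEAA_high libraries in the model 0 collagen genes passed, as did 0 of all 17823 genes. In that model 12 of the 30 collagen genes lay below at an unadjusted p of 0.05 in limma, beside 1295 of all genes. After removal of a trend with transcript length 0 passed, while 560 genes rose and 269 fell over the whole table. There 11 collagen genes lay below at an unadjusted p of 0.05 in limma, a cut-off not counted over all genes. The tested collagen transcripts are long, with a median of 5989 bases against 3017 for all genes tested, and the median change over all genes fell from 0.22 in the shortest of 10 equal length bins to -0.16 in the longest. Without the muscle-bearing libraries 3 passed, beside 1.61% of all genes that fell. The count was also 3 without LPS 1, LPS 5 or AEAA_high 5. It was 4 without LPS 4 or AEAA_high 2 and 5 without AEAA_high 3 or AEAA_high 4. The share over all genes was not counted with 1 library left out.

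Col5a1 stood at 15.2, 13.4, 14.2, 17.3 and 16.2 scaled TPM in AEAA_high 1 to 5, against 32.3, 19.5, 20.0, 25.4 and 26.5 in LPS 1 to 5. The 5 high-dose values lay within or near the control range of 13.5 to 18.8. The difference from LPS was -0.65 ± 0.14 (SE, limma adjusted p = 0.00770 with all groups, 0.0819 with the groups compared alone and 0.0517 after the length trend was removed). Col1a1 stood at 46.9, 57.3, 54.0, 49.2 and 61.0 in AEAA_high, also within the control range, and only LPS 2 (55.3) overlapped with it. Its difference was -0.67 ± 0.18 (limma adjusted p = 0.0230), and Col1a2, at 72.9 ± 4.34, differed by -0.51 ± 0.15 (limma adjusted p = 0.0307).

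Col4a3 was 15.1 ± 2.63 in AEAA_high against 23.1 ± 6.22 in LPS, and Col4a4 was 9.82 ± 1.56 against 14.6 ± 2.32. These differences were -0.55 and -0.53 (limma adjusted p = 0.0368 and 0.0203). Col6a2 was 49.7 ± 5.21 against 72.7 ± 18.7, a difference of -0.51. Col5a3 and Col17a1 were at low levels, 0.626 ± 0.155 and 0.803 ± 0.461, and their differences of -0.71 and -0.89 shrank to -0.40 each without the muscle-bearing libraries. Col4a1, at 227 ± 129, differed from LPS by -0.62 with a 95% interval of -1.57 to 0.34 (limma adjusted p = 0.446), and Col18a1 by -0.11 with an interval of -0.999 to 0.775, so neither a fall nor a rise of these could be seen at this spread.

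**Figure D4:**
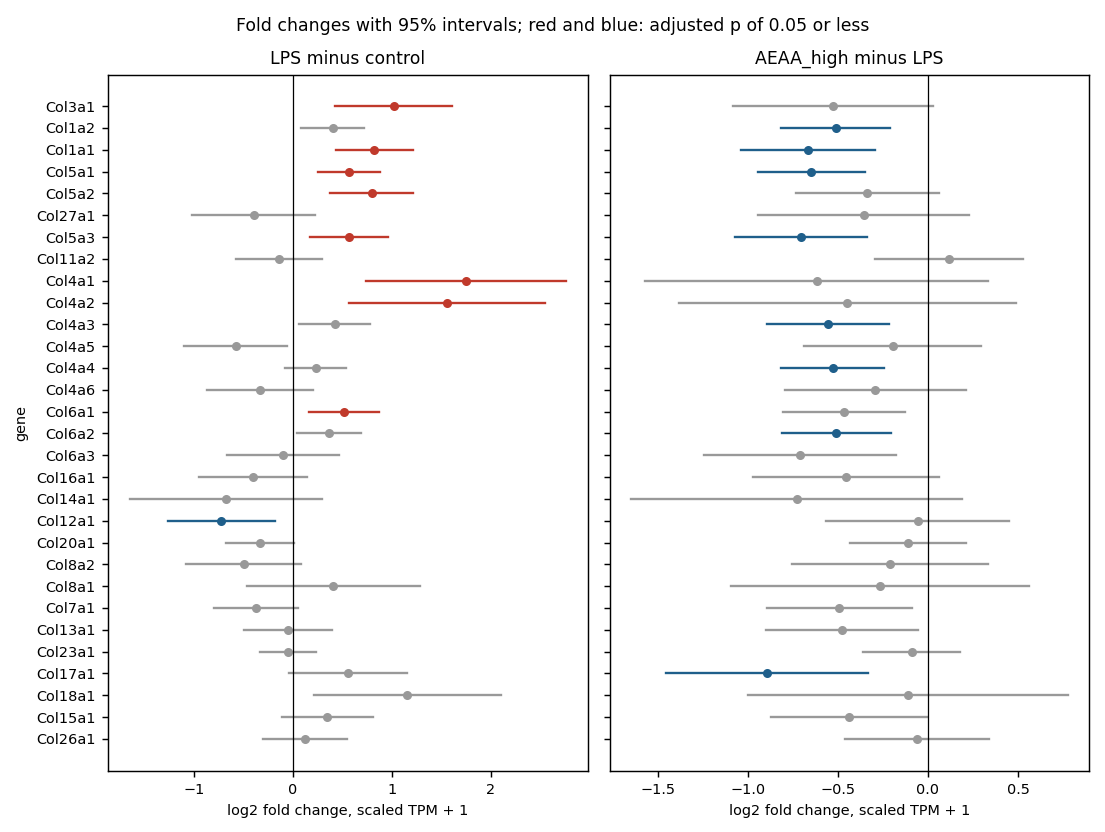
Log2 fold changes (dots) with 95% intervals (lines) for the 30 tested genes, LPS minus control on the left and AEAA_high minus LPS on the right. Both panels share the LPS libraries; the 8 genes in red and 1 in blue on the left and the 8 in blue on the right passed an adjusted p of 0.05.

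At the lower doses no collagen gene passed against LPS. In AEAA_low 0 rose and 0 fell in limma, where 1.74% of all genes rose and 0.55% fell. At an unadjusted p of 0.05 in limma 0 lay above and 1 below, beside 1496 and 1339 of all genes. With TPM as deposited Col5a1, Col7a1 and Col23a1 fell, a share near the 9.38% of all genes that fell in that fit. Col7a1 stood at 1.20 to 2.49 in AEAA_low, below all LPS values of 2.97 to 3.88, the 1 collagen gene with that separation, beside 1.87% of all genes, while 0 were separated upward (3.11% of all genes). Its difference was -0.54 with a 95% interval of -0.95 to -0.14 (limma adjusted p = 0.156). In AEAA_mid 0 collagen genes and 0% of all genes passed in either direction. At an unadjusted p of 0.05 in limma 1 collagen gene lay above and 0 below, beside 282 and 259 of all genes. In 0 of the 30 were the AEAA_mid libraries separated from LPS, where 0.213% of all genes were separated upward and 0.157% downward. Col1a1 differed from LPS by 0.03 in AEAA_low and by 0.27 in AEAA_mid, with 95% intervals of -0.34 to 0.40 and -0.10 to 0.64. The doses were not compared with each other by a test.

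Against control, the 3 extract groups share the control libraries and their values are given side by side. In AEAA_low 4 collagen genes rose (Col1a1, Col1a2, Col3a1 and Col5a2) and 3 fell (Col7a1, Col8a2 and Col12a1), where 13.1% of all genes rose and 12.6% fell. In AEAA_mid 12 rose and 1 fell, where 14.2% rose and 14.1% fell. The 12 were the 4 of the low dose with Col5a1, Col4a1, Col4a2, Col4a3, Col4a4, Col6a1, Col6a2 and Col18a1. In AEAA_high 0 rose and 6 fell (Col4a5, Col6a3, Col7a1, Col12a1, Col14a1 and Col16a1), where 9.42% rose and 9.09% fell in limma. At an unadjusted p of 0.05 in limma 4 lay above and 11 below, beside 3483 and 3327 of all genes. Every library lay above every control in 6, 11 and 0 of the 30 genes in order of dose (14.8, 16.2 and 7.64% of all genes) and below in 6, 1 and 4 (13.8, 15.2 and 7.18% of all genes). With TPM as deposited the counts were 13 up and 1 down, 16 up and 0 down, and 6 up and 1 down in order of dose. There 44.4, 53.3 and 37.5% of all genes rose and 2.04, 1.47 and 1.51% fell. The collagen rises were thus near the share of all genes at the low and mid dose and below it at the high dose.

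Col1a1 was 88.6 ± 16.4 in AEAA_low, 104 ± 19.4 in AEAA_mid and 53.7 ± 5.75 in AEAA_high (SD, n = 5 each), against 48.3 ± 8.99 in control. The low and mid doses lay above every control library, at differences of 0.86 and 1.09 (limma adjusted p = 0.00494 and 0.00046). Col4a1 was 220 ± 84.2, 319 ± 141 and 227 ± 129, against 87.9 ± 13.6, and of these the mid dose passed, at 1.74 (limma adjusted p = 0.0120). Col4a3 rose in AEAA_mid, where its 24.2 to 36.5 lay above the control range of 14.8 to 18.3. Col7a1 fell at each dose, to 1.96 ± 0.488, 2.76 ± 0.572 and 2.18 ± 1.08 from 4.64 ± 1.37.

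Within AEAA_high the FACIT genes that fell against control did so unevenly. Col14a1, a FACIT collagen of tendon and skin, stood at 12.3, 1.75, 2.18, 9.63 and 2.05 scaled TPM in AEAA_high 1 to 5, against 11.1 to 14.2 in control. AEAA_high 1 and 4, which had low Col4a1, kept Col14a1 near control, and the other 3 libraries were the lowest of all 24. Col16a1 stood at 12.6, 4.82, 5.92, 13.5 and 12.2 against 16.2 to 19.2. The count of 6 that fell was 11 without AEAA_high 1, 10 without AEAA_high 4 and 3 without AEAA_high 5. It was 1 without AEAA_high 2, AEAA_high 3 or any 1 of the control libraries. With only both groups compared in the fit it was 0, beside 1.39% of all genes. Without AEAA_high 1 or AEAA_high 4, 3 genes rose. Shares over all genes were not counted with 1 library left out, so these counts do not single out the collagen genes. In AEAA_low the count that fell was 1 without Control 1 or AEAA_low 4 and 5 without AEAA_low 1, and the fall of Col7a1 in AEAA_mid did not pass without Control 1, Control 4, AEAA_mid 2, AEAA_mid 4 or AEAA_mid 5.

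Chains of 1 trimer were also compared as ratios within a library, which no scaling can move. A set of 10 ratios of chains was looked at, and 7 of partner chains were then tested in LPS against control and in AEAA_high against LPS, so these 14 tests were chosen after the values had been seen. None passed Benjamini-Hochberg adjustment over the 14 (smallest adjusted p = 0.111, two-sided exact permutation tests). With so few libraries 1 ratio alone could not have passed over 14 tests, however large its difference. The adjusted values therefore decide nothing about a single ratio. Col1a2 to Col1a1 was 1.73, 1.56, 1.76 and 1.55 in control and 1.14, 1.38, 1.21, 1.27 and 1.13 in LPS, without overlap. This gave an exact permutation p of 0.0159, the smallest that 4 against 5 libraries can give, and an adjusted p of 0.111. Type I collagen is mostly assembled from the alpha 1 and alpha 2 chains together. Col4a5 to Col4a3 was 1.57 to 2.08 in control and 0.650 to 1.58 in LPS, with LPS 2 highest (exact permutation p = 0.0317, adjusted p = 0.111). Col4a1 to Col4a2 was 1.12 ± 0.0653 in control, 1.28 ± 0.110 in LPS and 1.13 ± 0.0484 in AEAA_high. Its exact permutation p was 0.0317 in LPS against control and in AEAA_high against LPS (adjusted p = 0.111 for each). The ratios of Col5a1 to Col5a2, Col6a1 to Col6a2, Col6a3 to Col6a1 and Col4a3 to Col4a4 had exact permutation p values of 0.127 to 0.254 in LPS against control (adjusted p = 0.286 to 0.356).

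**Figure D5:**
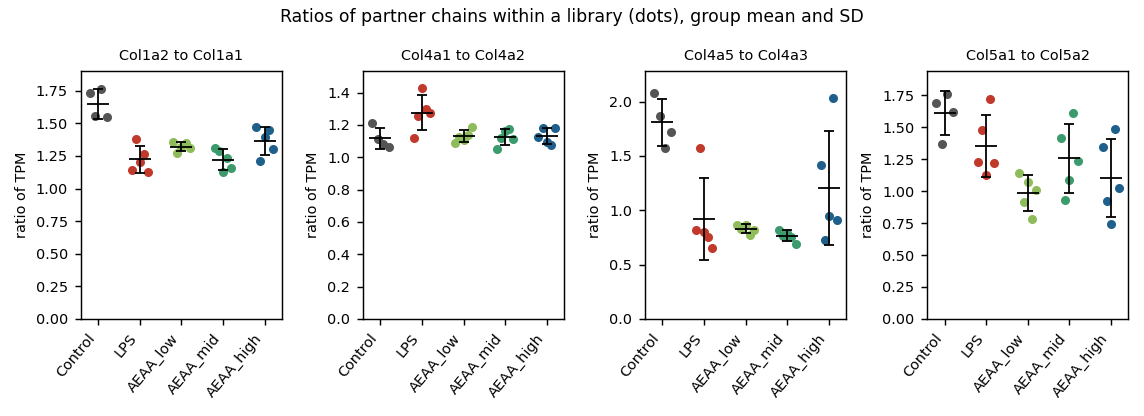
Ratio of TPM between partner chains within each library (dots) by group, with the group mean and SD in black (n = 4 or 5). The ratio of Col1a2 to Col1a1 lies between 1.55 and 1.76 in control and between 1.13 and 1.38 in LPS, and no ratio passed adjustment over the 14 tests. With so few libraries 1 ratio alone could not have passed.

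The 14 collagen genes that were not tested had low values throughout: Col2a1, Col6a4, Col6a5, Col6a6, Col9a1, Col9a2, Col9a3, Col10a1, Col11a1, Col19a1, Col22a1, Col24a1, Col25a1 and Col28a1. Their highest value was 2.08 scaled TPM, for Col10a1, the collagen of hypertrophic cartilage, in AEAA_low 4. Col10a1 was also 1.67, 0.750 and 0.506 in AEAA_mid 1, 4 and 5 and at most 0.222 in every other library. The cartilage collagen Col9a2 was 0.895 in AEAA_low 4 and 0.569, 1.16 and 0.382 in AEAA_mid 1, 4 and 5, but also 0.443 in Control 4. Col2a1, the main cartilage collagen, was 0.534, 0.576 and 0.204 in AEAA_mid 1, 4 and 5 and 0.199 in AEAA_low 4, below the 0.376 of AEAA_low 1. Acan, the main cartilage proteoglycan, was 0.845 in AEAA_low 4 and 0.738, 0.458 and 0.613 in those mid-dose libraries, and did not exceed 0.150 elsewhere. The other cartilage markers did not all share this pattern. Chad, the only 1 of the 8 that met the level filter, was 42.5 to 62.0 in control and 11.9 to 18.9 in those 4 libraries, and the sum of the 8 markers was 43.1 to 62.8 in control and 16.1 to 24.1 in those 4. Chad fell in every challenged group against control, by -2.11 in LPS and -2.15, -1.96 and -2.19 in order of dose. The sum was also below control in LPS, at 7.37 to 21.4, and in AEAA_high, at 4.47 to 39.2.

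In all, 8 pairs of collagen genes are direct neighbours in the RefSeq gene order, 15 genes between them, and some of these pairs changed alike. Col3a1 and Col5a2 on chromosome 1 both rose in LPS, as did Col4a1 and Col4a2 on chromosome 8, and Col4a3 and Col4a4 on chromosome 1 both fell in AEAA_high. Col6a1 and Col6a2 on chromosome 10 stood at a ratio of 1.19 to 1.74 in all libraries, but their calls differed. Col6a1 rose in LPS, where Col6a2 did not pass (limma adjusted p = 0.0808). Col6a2 fell in AEAA_high against LPS, where Col6a1 did not pass (limma adjusted p = 0.0789). The pairs of Col9a1 with Col19a1, Col6a6 with Col6a5 and Col6a5 with Col6a4 were not tested. Col4a5 and Col4a6 on chromosome X both had negative differences in LPS that did not pass.

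The genes that act on collagen or bind it were taken from 5 lists, whose counts in LPS against control stand beside 13.8% of all genes that rose and 14.2% that fell. At an unadjusted p of 0.05 in limma, 3732 of all 17823 genes lay above and 3715 below. Of 20 tested genes for folding and modification of procollagen, 4 rose and 0 fell (5 and 0 at an unadjusted p of 0.05 in limma): Plod3, a lysyl hydroxylase and glycosyltransferase, went from 26.3 ± 2.86 to 61.5 ± 17.5 scaled TPM (1.15, limma adjusted p = 0.000499), beside Mia3, a cargo receptor for procollagen export, P4hb, the protein disulfide isomerase subunit of prolyl hydroxylase, and Plod1. Of 12 genes for processing and cross-linking, Lox and Loxl1, lysyl oxidases that cross-link fibrils, rose and 0 fell (7 and 1 at an unadjusted p of 0.05). Lox was 13.2 ± 1.61 in control and 42.1 ± 16.9 in LPS. Of 7 genes for degradation and uptake, the collagenases Mmp14 and Mmp8 and the gelatinase Mmp9 rose and 0 fell (3 and 0 at an unadjusted p of 0.05). Mmp14, a membrane-bound collagenase, was 22.4 to 31.3 in control and 46.7 to 108 in LPS.

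Of 7 collagen receptors 1, a share near that of all genes, rose and 0 fell (1 and 0 at an unadjusted p of 0.05 in limma). It was Itga2, the integrin alpha 2 chain, at 3.92 ± 0.648 in control and 6.54 ± 0.781 in LPS. Of 10 collagen-binding matrix genes, Fn1 (fibronectin) and Bgn (biglycan) rose and Dpt (dermatopontin) fell, also near the shares of all genes. In AEAA_high against LPS, where 5.67% of all genes rose and 3.27% fell, Ppib, the cyclophilin of the prolyl 3-hydroxylase complex, rose from 358 ± 30.5 to 484 ± 89.1, while Ddr2, a receptor tyrosine kinase for fibrillar collagen, fell from 17.3 ± 3.87 to 11.4 ± 2.37. Itga10, Bgn and Prelp also fell, and 0 genes for processing or degradation passed (0 up and 3 down, and 0 up and 2 down, at an unadjusted p of 0.05 in limma). Over all genes 2240 lay above and 1970 below at that cut-off. In these 5 lists 0 genes passed at the low or mid dose against LPS (limma, with 3 above and 1 below at an unadjusted p of 0.05 in AEAA_low and 0 in AEAA_mid). Over all genes that cut-off gave 1496 above and 1339 below in AEAA_low, and 282 and 259 in AEAA_mid. The most abundant genes of the lists there, Ppib, Pcolce, Mmp14, Itgb1 and Sparc, differed from LPS by -0.05 to 0.41.

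Markers of the cells that could carry these transcripts also moved. Their counts in LPS against control stand beside 13.8% of all genes that rose and 14.2% that fell. In LPS against control, the summed level of 8 fibroblast markers was 4928 to 5758 in control and 1976 to 3927 in LPS, and of these Inmt, Mfap4 and Dpt fell and Pdgfra rose. The sum of 6 endothelial markers was 919 to 1102 in control and 1098 to 1524 in LPS, where Pecam1 and Cdh5 rose. Of 8 smooth muscle and pericyte markers 1, Cox4i2, fell, a share near that of all genes. All 3 club cell markers fell, as did 1 of 4 type I markers (Hopx), 1 of 4 type II markers (Sftpc) and the 1 cartilage marker tested (Chad), and 4 of 5 neutrophil markers rose. Of the mesothelial, skeletal muscle and adipocyte markers 0 passed in limma (1, 1 and 0 higher at an unadjusted p of 0.05). Over all 17823 genes 3732 were higher at that cut-off. Sftpc, Ager and Scgb1a1 were present in every library, as in lung.

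In AEAA_high against LPS, Pdgfrb, a pericyte and fibroblast receptor, fell from 44.7 ± 4.82 to 28.8 ± 4.66 scaled TPM, with every AEAA_high library below every LPS library. Notch3, of vascular smooth muscle, and Cdh5, of endothelium, fell as well. Pdgfrb and Notch3 were 2 of 8 smooth muscle and pericyte markers and Cdh5 1 of 6 endothelial markers, where 3.27% of all genes fell. The endothelial sum was 1035 to 1136 in AEAA_high, against 1098 to 1524 in LPS, and the smooth muscle and pericyte sum was 416 to 947 against 360 to 919. For fibroblast markers the sum was 1152 to 4317, and 0 of 8 passed (0 up and 3 down at an unadjusted p of 0.05 in limma). Over all 17823 genes 2240 lay above and 1970 below at that cut-off. In AEAA_high against control, 6 of the 8 fibroblast markers fell and 0 rose (median change -0.91), where 9.09% of all genes fell. Of the 8 smooth muscle and pericyte markers 2 fell and 0 rose there, and of the 6 endothelial markers 0 passed. The part of these cell types in the collagen values was not tested.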

How the data were processed

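Total RNA of 24 mouse lungs was sequenced after removal of ribosomal RNA, per the labels' protocols. The authors deposited TPM, a length-normalized unit with the same total in each library. The submitters' processing notes name HISAT2, StringTie, RSEM, DESeq2 and GRCm39. Versions and the annotation release are not given in the sources used here. No read counts were used, so depth is unknown and no counting error can be given.

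TPM were divided by median-of-ratios factors, and log2(scaled TPM + 1) was fitted with limma 3.58.1 (R 4.3.3; trend, robust, 1 mean per group, two-sided). P-values were adjusted over 17823 genes. The fit was tested on simulated data. Alternatives were deposited TPM, upper-quartile scaling, another pseudocount or filter, only the groups compared, a fold threshold, a replicate block and leaving out libraries. Alternatives with a length trend removed and without muscle-bearing libraries, and the chain ratios, were added after seeing the data.

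Named genes were up to 6 called members per direction by smallest adjusted p, the most abundant member of each class, partners in a trimer, and in other lists the 3 called genes with the smallest adjusted p or the most abundant gene. Others named were chosen after their values were seen. Members and gene lists (5 pathway and 12 marker lists) were chosen with earlier results of these data known. Sequences are from RefSeq tables on GRCm38.p6 and lengths from GENCODE vM21, matched by symbol or gene identifier. No coordinates of another build were mixed with them.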

Additional observations from a re-analysis of the deposited data

Results flagged for a closer look

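Of 150 checks of a single library within a group (30 tested genes in 5 groups, with Dixon's ratio), 3 stood apart. Chance flags about 1 in 20 such checks. Col8a2, a network collagen, was low in LPS 3 at 3.96 scaled TPM, where the other LPS libraries were 7.43 to 8.75. Col13a1, a transmembrane collagen, was high in LPS 4 at 34.4, where the others were 18.2 to 22.6. Col8a1 was high in AEAA_high 5 at 9.12, where the others were 3.06 to 4.14.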

How the results depend on the processing

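Here brackets hold the share of all genes called in the same direction and setting, which was not counted with 1 library left out. Of the collagen genes, 17 rose in LPS against control with TPM as deposited (56.2%). The count was 3 at an absolute log2 change of 1 or more (2.25%) and 2 without the 3 muscle-bearing libraries (7.29%). It was 5 to 12 with 1 library left out. Counts that fell were 0 with deposited TPM (1.86%), no filter (5.04%), the fold threshold (3.11%) or without the muscle-bearing libraries (8.04%). They were 2 with the length trend removed (13.5%) and 0 to 1 with 1 library left out. In AEAA_low against LPS 3 fell with deposited TPM (9.38%). In AEAA_high against LPS 16 fell with deposited TPM (25.5%) and 2 with no filter (0.516%). The count was 0 with only the groups compared (0%), at the fold threshold (0.18%) or with the length trend removed (1.64%). It was 3 without the muscle-bearing libraries (1.61%) and 3 to 9 with 1 library left out. Against control, AEAA_low gave 13 up and 1 down with deposited TPM (44.4 and 2.04%). It gave 8 and 6 with only the groups compared (18.2 and 16.8%), and 1 and 0 at the fold threshold (3.93 and 2.75%). With the length trend removed 5 fell (13.2%), and with 1 library left out 3 to 6 rose and 1 to 5 fell. AEAA_mid gave 5 up at the fold threshold (2.6%). It gave 0 down with deposited TPM (1.47%), pseudocount 0.1 (13.2%), no filter (5.04%), the fold threshold (2.56%) or without the muscle-bearing libraries (13.7%). With only the groups compared or the length trend removed it gave 2 down (17.8 and 13.8%). With 1 library left out it gave 10 to 11 up and 0 to 1 down. AEAA_high gave 6 up and 1 down with deposited TPM (37.5 and 1.51%). It gave 1 down with no filter (2.15%) or the fold threshold (2.1%) and 0 down with only the groups compared (1.39%). With 1 library left out it gave 0 to 3 up and 1 to 11 down. Except where a setting tests fewer samples or adds a threshold, the cause was not tested. Of the 43 called changes of single genes, 0 reversed under any setting run, but all settings reuse the same libraries, so a reversal was unlikely. Many calls were lost: 33 at the fold threshold, 18 with no filter, 17 with only the groups compared and 15 without the muscle-bearing libraries. With 1 library left out, 115 of 395 values did not pass.

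With the replicate number as a block, 6 collagen genes rose and 1 fell in LPS against control (12.9 and 13% of all genes). In AEAA_high 6 fell against LPS (3.11% of all genes) and 4 against control (7.29%). In AEAA_mid 0 fell against control (12.6%). Correlations of same-numbered libraries of different groups ran from -0.456 to 0.650 (median 0.0579, 46 pairs), and 5 of 24 libraries matched best with their own number, so the numbers were not taken to pair the animals. The planned length correction needed lengths in the deposited table, which holds none, and GENCODE lengths took their place.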
